A study of Homo sapiens with 8 samples.

Results

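The genes described here are 10 effectors of the stress response that the transcription factors ATF4 and CHOP drive. They are ATF4, DDIT3 (which encodes CHOP), ATF3, CEBPB, TRIB3, CHAC1, NUPR1, SESN2, DDIT4 and PPP1R15A. They were chosen by name, with earlier results of these data known. Every probe whose single symbol in the platform's probe table is one of these genes, or an older name of one, was taken. All 10 were found, on 12 of the 31741 probes, among 18336 genes with a probe of their own. ATF4 and TRIB3 had 2 probes each and the others 1.

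The arrays measured 2 human liver cancer lines, PLC/PRF/5 (PLC5 in the labels) and HepG2, in 4 groups of 2 one-colour arrays: PLC5 given 10 µM GSK343, PLC5 control, HepG2 given 10 µM GSK343 and HepG2 control. GSK343 is a small-molecule inhibitor of EZH2, the histone methyltransferase of the Polycomb repressive complex PRC2. Titles and the stated design give 16 h of exposure for all groups, whereas the treatment protocol gives 6 h, so the time is uncertain. All cells shared one serum-containing medium, the labels do not say whether controls received the solvent, and separate cultures behind the 2 arrays of each group are not stated either, so p-values cover only the spread between these arrays, which may be technical. An array of a whole culture cannot tell more cells with a transcript apart from more transcript per cell.

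When unfolded protein, amino acid shortage, haem shortage or double-stranded RNA activates one of the kinases that phosphorylate the initiation factor eIF2, most translation slows while that of the ATF4 mRNA increases. ATF4 then switches on genes of amino acid supply and of redox balance and, with prolonged stress, CHOP, and both work as dimers with C/EBP and other basic leucine zipper (bZIP) proteins. PPP1R15A (also called GADD34) closes the loop by bringing a phosphatase to eIF2. Because ATF4 is controlled mainly by translation, its mRNA is one layer of its activity and the mRNAs of its targets are another.

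Values are intensities after quantile normalization over the 8 arrays, and changes are log2 differences with the standard error of a limma fit. "Called" means an adjusted p under 0.05 over all probes. A gene with more than 1 probe is represented by the brighter, its main probe, and levels are compared only within a probe. Across probes, r within groups was 0.984 to 0.989, and the small number of arrays limits the precision. Between control and treated arrays of the same line r was nearly as high, at 0.978 to 0.987. In the deposited values, 6.99% of probes were at or below 1 in the first HepG2 control and 6.35% in the second PLC5 control. The other arrays had 0 to 1.27%. Before normalization the median probe was brighter after GSK343 by 0.11 (log2) in PLC5 and by 0.50 in HepG2, and brighter by 0.86 in PLC5 controls than in HepG2 controls. Every change below is relative to these shifts. Albumin, a defining hepatocyte product, read 657 to 677 in treated PLC5 and 706 to 786 in PLC5 controls, against 175600 to 186100 in treated HepG2 and 140600 to 150800 in HepG2 controls. Of the 10 measured hepatocyte markers, 8 were called lower and 2 higher in PLC5 controls than in HepG2 controls. FGA read 119300 and 134800 in PLC5 controls, against 66080 and 66590 in HepG2 controls. FGB read 80050 and 88690 in PLC5 controls, against 20290 and 19480 in HepG2 controls. None of the 10 measured hepatocyte markers was below an intensity of 64 in any group, and their summed level was 442000 to 462000 in treated PLC5 and 443000 to 490000 in PLC5 controls, against 1390000 to 1400000 in treated HepG2 and 1270000 to 1350000 in HepG2 controls. Markers of immune cells were mostly dim, with 3 of 4 below an intensity of 64 in every group. Summed cholangiocyte markers were 8870 to 9010 in treated PLC5 and 9110 to 9260 in PLC5 controls. In HepG2 they were 114000 to 118000 after GSK343 and 101000 to 107000 in controls. Of these 4 markers, 3 were called lower and 1 higher in PLC5 controls than in HepG2 controls. The higher one was KRT7, at 546.9 and 593.9 in PLC5 controls, against 42.13 and 59.12 in HepG2 controls. Summed fibroblast and stellate markers were 2630 to 2650 in treated PLC5 and 1980 to 2310 in PLC5 controls. Their HepG2 sums were 27800 to 28300 after GSK343 and 21600 to 22200 in controls. Most of these HepG2 sums came from ACTA2, at 25420 and 25060 after GSK343 and 17740 and 17950 in controls. Of the 6 markers, 1 was called higher and 1 lower after GSK343 in HepG2 (median -0.25). Between the controls, 4 were called lower in PLC5 and 1 higher. LUM read 318.2 and 350.8 in PLC5 controls, against 223.6 and 219.7 in HepG2 controls.

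In PLC5, GSK343 raised 8 of the 10 genes and lowered none: TRIB3, NUPR1, CHAC1, DDIT4, SESN2, ATF3, DDIT3 and CEBPB. Of all genes, 0.834% were called higher and 0.235% lower in PLC5, and 1.32% were called higher among the genes in the brighter 50% of probes. The median log2 change of the 10 was 1.01, against -0.01 over all genes. In HepG2 the response was split: 5 genes rose (NUPR1, DDIT4, TRIB3, CHAC1 and CEBPB), PPP1R15A fell, and ATF4, DDIT3, ATF3 and SESN2 were not called. In HepG2 5.35% of all genes were called higher and 3.45% lower, and 6.31% were called higher among those in the brighter 50%. The median of the 10 there was 0.41, against -0.01 over all genes. The 5 genes that rose in HepG2 also rose in PLC5, where 0.431% of all genes were called higher in both lines. Because the 10 were chosen with earlier results of these data known, their counts and medians are a description and not an independent test.

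**Figure D1:**
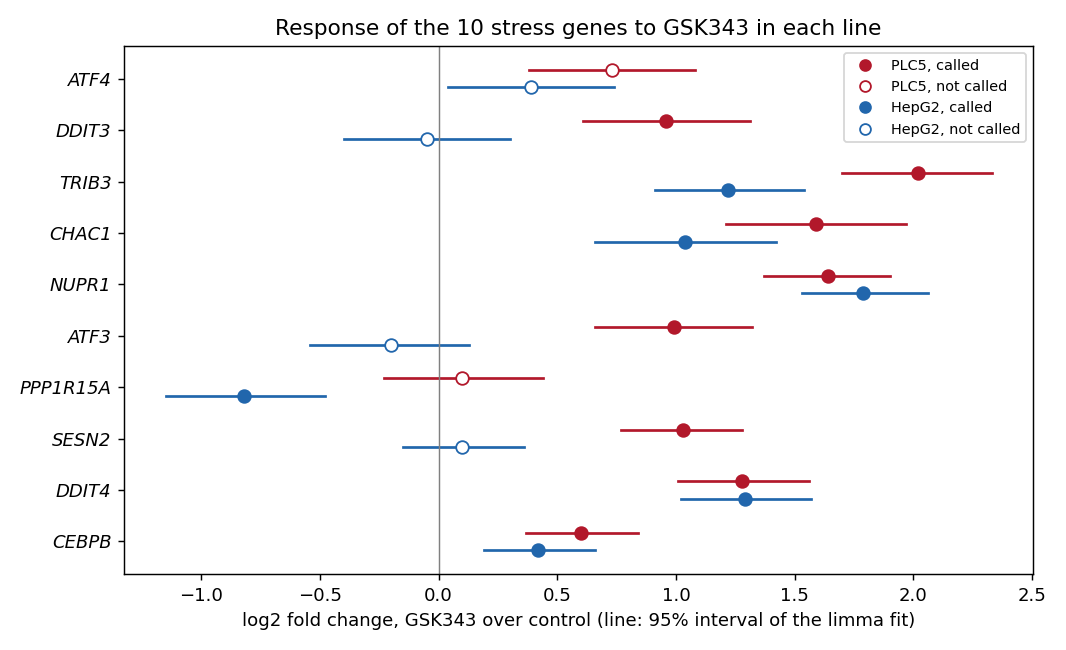
Log2 fold change of the main probe of each of the 10 genes, GSK343 over control, in PLC5 (red) and HepG2 (blue); lines are 95% intervals of the limma fit over 8 arrays and filled points are called at an adjusted p under 0.05. In PLC5 the values run from 0.10 for PPP1R15A to 2.02 for TRIB3, and in HepG2 from -0.82 for PPP1R15A to 1.79 for NUPR1.

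Treated arrays lay above both controls for 9 of the 10 genes in PLC5, the exception being PPP1R15A, while 22.8% of all genes were so placed. In HepG2 they lay above both controls for 7 genes and below both for 2, with 29.2% and 30.9% of all genes so placed. In PLC5, TRIB3 ranked at position 27 of 18336 genes by its log2 change, NUPR1 at 57, CHAC1 at 63, DDIT4 at 105, SESN2 at 171, ATF3 at 182 and DDIT3 at 194. In HepG2, NUPR1 ranked at 66, DDIT4 at 212, TRIB3 at 255 and CHAC1 at 409. The calls of TRIB3, NUPR1 and DDIT4 in both lines and of SESN2 in PLC5 held in all 22 other settings tried. Those of CHAC1, DDIT3, ATF3 and CEBPB in PLC5, and of CHAC1, CEBPB and PPP1R15A in HepG2, did not.

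**Figure D2:**
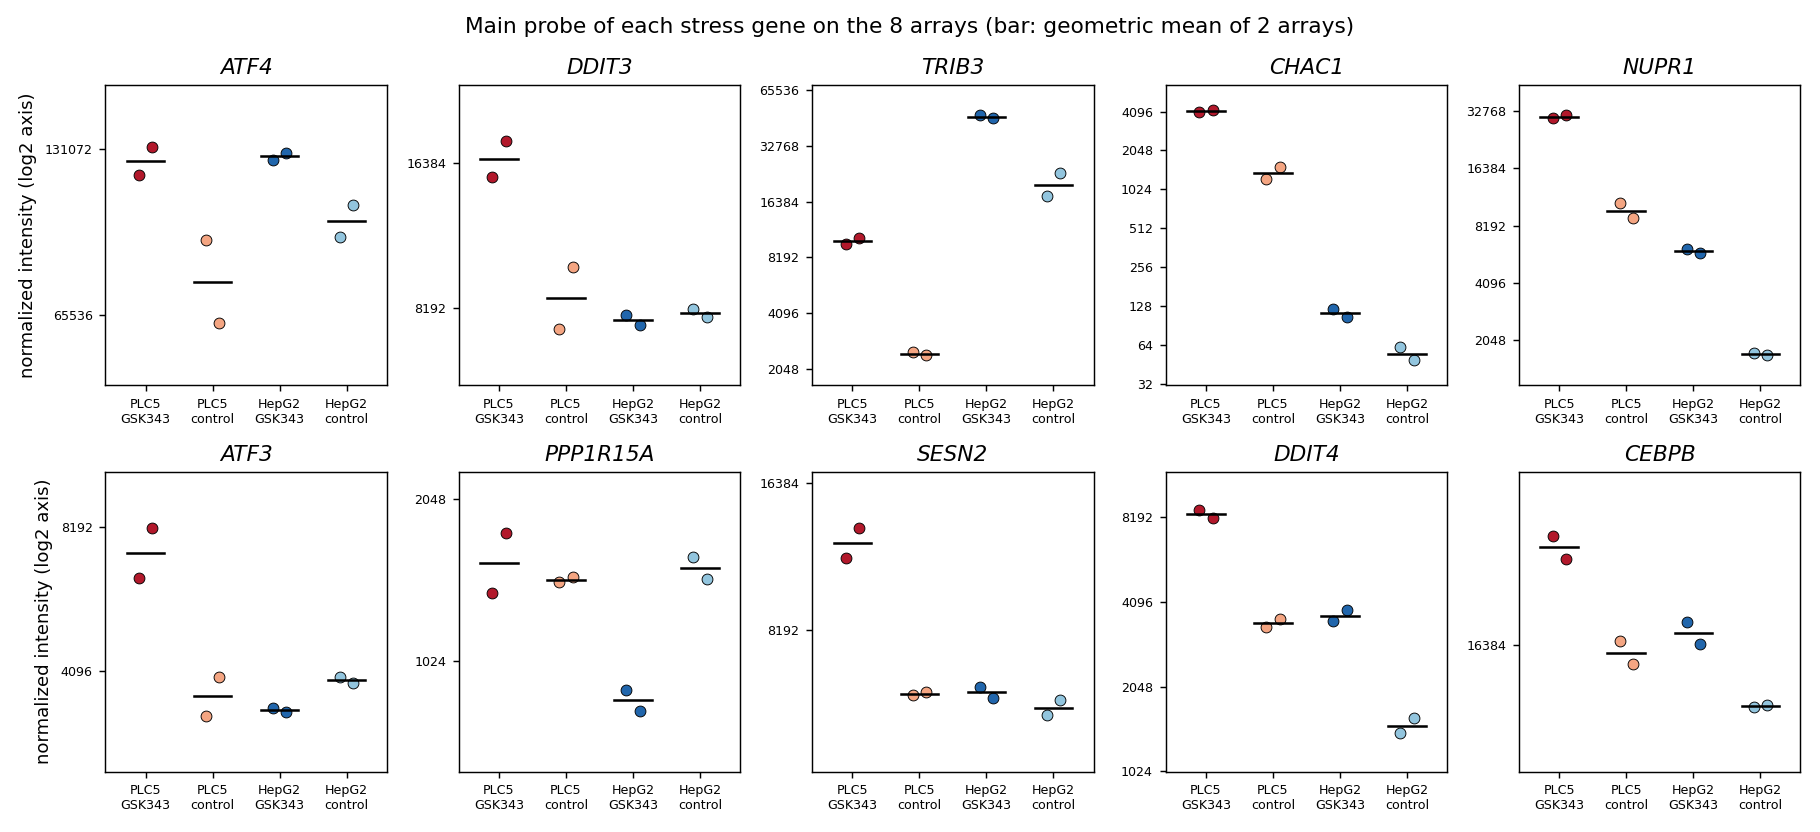
Normalized intensity (log2 axis, one scale per gene) of the main probe of each gene on the 8 arrays, in the order treated PLC5, PLC5 control, treated HepG2 and HepG2 control; points are arrays and bars are geometric means of 2 arrays. The 2 treated PLC5 arrays stand above the 2 PLC5 controls for every gene except PPP1R15A, whereas in HepG2 the treated arrays of DDIT3 lie within or below the control range and those of PPP1R15A lie below it.

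Because most of these genes moved together in PLC5, their RefSeq promoter windows were searched for the C/EBP-ATF element, the composite site bound by ATF4 with a C/EBP partner, written TGATGNAA or, on the other strand, TTNCATCA. The 250 bases before each annotated start were read, in assembly GRCh38.p14, and 9 of the 10 genes had at least 1 window. CHAC1, with 1 window, and ATF3, in 1 of its 2 windows, held the element, and 3.14% of the 35116 windows of all genes did. That share counts single windows, whereas a gene here had up to 3 windows, so a count of genes cannot be set directly against it. After the values were seen, the cAMP response element TGACGTCA, a palindrome that does not overlap the first motif, was also searched. The 1 window of PPP1R15A held it, as did 1.65% of all windows, again a share of single windows. The 3 windows are shown because they are those with a match among these genes, and the matches are in capitals. All lie on the plus strand, at chr15:40953221-40953470 for CHAC1, chr1:212565157-212565406 for ATF3 (the farther upstream of its starts) and chr19:48872171-48872420 for PPP1R15A.
CHAC1: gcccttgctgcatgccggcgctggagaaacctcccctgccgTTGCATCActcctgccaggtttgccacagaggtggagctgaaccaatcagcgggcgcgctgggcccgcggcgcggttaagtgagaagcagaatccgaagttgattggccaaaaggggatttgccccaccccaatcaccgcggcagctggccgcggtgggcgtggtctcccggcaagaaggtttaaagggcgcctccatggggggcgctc
ATF3: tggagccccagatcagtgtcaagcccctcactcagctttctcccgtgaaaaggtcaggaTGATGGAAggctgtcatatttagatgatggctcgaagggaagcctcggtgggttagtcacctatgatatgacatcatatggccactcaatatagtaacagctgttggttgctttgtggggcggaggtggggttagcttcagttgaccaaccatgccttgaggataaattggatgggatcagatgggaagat
PPP1R15A: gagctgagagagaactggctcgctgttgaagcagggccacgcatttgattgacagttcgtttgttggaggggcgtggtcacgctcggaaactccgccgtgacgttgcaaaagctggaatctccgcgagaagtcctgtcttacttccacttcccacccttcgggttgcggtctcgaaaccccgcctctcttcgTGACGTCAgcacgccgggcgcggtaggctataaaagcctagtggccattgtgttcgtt
The match ran from base -209 to -202 before the start in CHAC1, from -191 to -184 in ATF3 and from -58 to -51 in PPP1R15A. A match is only a run of letters in the window and says nothing of binding in these cells.

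Among the transcription factors, ATF4, at the head of the pathway, read 117600 and 132400 in treated PLC5, against 89630 and 63370 in PLC5 controls. HepG2 gave 125500 and 129200 after GSK343, against 90770 and 103800 in controls. Both treated arrays were above both controls in each line, but the 2 PLC5 controls lay far apart, and neither change was called, with 0.73 ± 0.15 in PLC5 (adjusted p = 0.0796) and 0.39 ± 0.15 in HepG2 (adjusted p = 0.145). Leaving out single arrays gave PLC5 changes of 0.48 to 0.99, the largest without the first of those controls, and HepG2 changes of 0.30 to 0.48. With no normalization the HepG2 change was called in limma (0.69, adjusted p = 0.0228), but that value includes the median shift of 0.50 between those arrays. The second ATF4 probe, far dimmer, was called in neither line, and its normalized values were lower after GSK343 on average. It read 474 and 573 in treated PLC5, against 571 and 626 in PLC5 controls, a change of -0.20 ± 0.14 (adjusted p = 0.578). Its HepG2 readings were 862 and 795 after GSK343 and 1067 and 1145 in controls, a change of -0.42 ± 0.14 (adjusted p = 0.0997). The probes' positions in the transcript were not used here, and before normalization the second probe was nearly level, at 689 and 707 in treated PLC5, against 740 and 709 in PLC5 controls, and at 690 and 725 in treated HepG2, against 663 and 654 in HepG2 controls. Its sign in HepG2 thus turned with the normalization, and no direction is drawn from it.

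DDIT3, whose product CHOP promotes cell death under prolonged stress, read 15320 and 18240 in treated PLC5, against 7411 and 9953 in PLC5 controls. It rose by 0.96 ± 0.15 (adjusted p = 0.0291), and both treated arrays were above both controls. The call held without the second PLC5 control (adjusted p = 0.016) but was lost without any other single array, those of HepG2 included because they share the estimate of spread (adjusted p from 0.0592 to 0.141). In HepG2 DDIT3 read 7925 and 7573 after GSK343 and 8175 and 7867 in controls, and the arrays overlapped (-0.05 ± 0.15, adjusted p = 0.865, 95% interval -0.40 to 0.30), with the sign turned when no normalization was applied (0.33).

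ATF3, a stress-induced bZIP repressor and an ATF4 target, read 6417 and 8147 in treated PLC5, against 3312 and 3995 in PLC5 controls, and rose by 0.99 ± 0.15 (adjusted p = 0.0219). The call was lost without the first PLC5 control (adjusted p = 0.110), the second treated PLC5 array (0.100) or either treated HepG2 array (0.0559 and 0.0537). HepG2 arrays read 3435 and 3380 after GSK343 and 3984 and 3870 in controls. There the treated arrays were the lower ones, and the change of -0.20 ± 0.15 was not called (adjusted p = 0.398) and turned positive without normalization (0.25).

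CEBPB, a C/EBP partner of ATF4 and CHOP, was the factor called in both lines. It read 25250 and 23100 in treated PLC5, against 16640 and 15160 in PLC5 controls, a rise of 0.60 ± 0.10 (adjusted p = 0.0394). HepG2 arrays gave 17920 and 16460 after GSK343, against 12770 and 12860 in controls, a rise of 0.42 ± 0.10 (adjusted p = 0.0428). Both calls stood close to the threshold, the PLC5 call being lost without any 1 of the 8 arrays (adjusted p from 0.0774 to 0.193) and the HepG2 call without any 1 of the 4 HepG2 arrays (0.112 to 0.184).

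The 3 members with the largest changes in PLC5 were TRIB3, NUPR1 and CHAC1. TRIB3, a pseudokinase that ATF4 and CHOP induce and that binds AKT and ATF4, read 9666 and 10390 in treated PLC5, against 2516 and 2434 in PLC5 controls. The HepG2 arrays read 48050 and 46050 after GSK343, against 17450 and 23300 in controls. The rise was 4.05-fold in PLC5 (2.02 ± 0.14, adjusted p = 0.00063) and 2.33-fold in HepG2 (1.22 ± 0.14, adjusted p = 0.00289). The second TRIB3 probe gave the same order of groups, with 2757 and 2595 in treated PLC5, 715 and 888 in PLC5 controls, 11560 and 10470 in treated HepG2 and 4965 and 4238 in HepG2 controls. It rose by 1.75 ± 0.14 in PLC5 (adjusted p = 0.00111) and by 1.26 ± 0.14 in HepG2 (adjusted p = 0.00296). Treated PLC5 arrays stayed below the HepG2 controls on both probes.

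NUPR1, a small chromatin-associated stress protein, rose in both lines. It read 30020 and 31160 in treated PLC5, against 10770 and 8986 in PLC5 controls, a 3.11-fold rise (1.64 ± 0.12, adjusted p = 0.000664). HepG2 had 6136 and 5889 after GSK343, against 1756 and 1717 in controls, a 3.46-fold rise (1.79 ± 0.12, adjusted p = 0.000394). The order of levels was treated PLC5, PLC5 control, treated HepG2 and HepG2 control, and no 2 of these groups overlapped.

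CHAC1, an enzyme that degrades glutathione and a late target of the ATF4 and CHOP axis, read 4075 and 4212 in treated PLC5, against 1233 and 1533 in PLC5 controls, and rose 3.01-fold (1.59 ± 0.17, adjusted p = 0.00336). With the first PLC5 control left out, that rise was 1.43 and no longer called (adjusted p = 0.0625). In HepG2 it was dim, with 121 and 105 after GSK343, against 61.6 and 49.3 in controls. That rise of 1.04 ± 0.17 (adjusted p = 0.0116) began below an intensity of 64, and its call was lost when the second HepG2 control (adjusted p = 0.0579) or the first treated array (0.0682) was left out. Even the highest HepG2 array lay below every PLC5 array. The promoter window of CHAC1 is the one printed above with the match TTGCATCA.

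SESN2 and DDIT4 (also called REDD1) encode inhibitors of the growth kinase mTORC1 that stress induces. DDIT4 rose in both lines. It read 8671 and 8126 in treated PLC5, against 3331 and 3566 in PLC5 controls, a 2.44-fold rise (1.28 ± 0.12, adjusted p = 0.00176). In HepG2 DDIT4 read 3490 and 3818 after GSK343, against 1398 and 1583 in controls, a 2.45-fold rise (1.29 ± 0.12, adjusted p = 0.00132). Treated HepG2 arrays overlapped the untreated PLC5 arrays.

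SESN2, a leucine sensor of the sestrin family, rose in PLC5, where it read 11510 and 13240 after GSK343, against 6004 and 6099 in controls (2.04-fold, 1.03 ± 0.11, adjusted p = 0.00406). In HepG2 SESN2 read 6256 and 5915 after GSK343 and 5460 and 5867 in controls, and the change was not called (0.10 ± 0.11, adjusted p = 0.59, 95% interval -0.15 to 0.36) except with no normalization (0.53, adjusted p = 0.0278). The 3 groups other than treated PLC5 lay between 5460 and 6256.

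DDIT4 is also induced by hypoxia and by glucocorticoids, so the genes of those responses were read beside it, and their part in its rise was not tested. As background, 0.834% of all genes were called higher and 0.235% lower in PLC5, and 5.35% and 3.45% in HepG2. Of 11 hypoxia genes outside glycolysis, 5 rose and 0 fell in PLC5 (median 0.80), among them NDRG1 (1.35 ± 0.12) and PDK1 (0.86 ± 0.12). In HepG2, 0 rose and 2 fell (median 0.03), PDK1 (-0.60 ± 0.12) and the carbonic anhydrase CA9 (-0.87 ± 0.16). Of 6 glucocorticoid receptor targets, limma called 0 in PLC5, with 3 at an unadjusted p under 0.05. In HepG2 it called 1, TSC22D3, higher by 2.17 ± 0.15 from a control level below 64. Another 1 was lower there at an unadjusted p under 0.05, and the HepG2 median was 0.06.

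PPP1R15A, which recruits protein phosphatase 1 to eIF2, was the 1 member that fell in either line. It read 1370 and 1770 in treated PLC5 and 1434 and 1467 in PLC5 controls, and the arrays overlapped (0.10 ± 0.15, adjusted p = 0.813, 95% interval -0.23 to 0.44). In HepG2 PPP1R15A read 907 and 831 after GSK343, against 1601 and 1456 in controls, and fell by 0.82 on the log2 scale (standard error 0.15, adjusted p = 0.0164). The HepG2 call was lost without any 1 of the 4 HepG2 arrays (adjusted p from 0.0581 to 0.0924) and without normalization (-0.32, adjusted p = 0.266). PPP1R15A, ATF3 and CEBPB also belong to the early genes that growth factor signalling induces. Of 19 other immediate early genes, limma called 0 in PLC5, and 3 higher and 1 lower passed an unadjusted p of 0.05 (median 0.10). In HepG2, 1 rose and 4 fell (median -0.31), the falls being IER3 (-1.62 ± 0.15), EGR1 (-1.40 ± 0.12), KLF6 (-0.72 ± 0.13) and DUSP1 (-0.52 ± 0.12). The shares of all genes were 0.834% called higher and 0.235% lower in PLC5, and 5.35% and 3.45% in HepG2.

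The difference of the 2 responses, PLC5 minus HepG2, was tested as an interaction. ATF3 differed by 1.20 ± 0.21 and SESN2 by 0.92 ± 0.16 (adjusted p = 0.0487 for each), both higher in PLC5, and 0 of the 10 were called lower. Of all genes, 0.436% were called higher and 0.404% lower for this difference. Neither call remained when any 1 of the 8 arrays was left out. DDIT3 (1.01 ± 0.22, adjusted p = 0.0775), PPP1R15A (0.92 ± 0.21, adjusted p = 0.0895) and TRIB3 (0.80 ± 0.20, adjusted p = 0.105) had differences of similar size that were not called. For DDIT4 the difference was -0.01 with a 95% interval of -0.39 to 0.37, and for NUPR1 -0.16 with -0.53 to 0.22, and differences inside those bounds could not be resolved. CEBPB (0.18 ± 0.15), ATF4 (0.33 ± 0.22) and CHAC1 (0.55 ± 0.24) were not called.

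The untreated lines already differed. Of the 10 genes, 4 were higher in PLC5 controls than in HepG2 controls and 1 was lower, where 26.8% and 31.6% of all genes were so called. CHAC1 was higher in PLC5 by 4.64 ± 0.17 (adjusted p = 4.43e-08), a size that rests on a dim HepG2 control mean of 55.1 and ran from 4.29 to 5.62 over the settings tried. NUPR1 was higher by 2.50 ± 0.12 (adjusted p = 2.19e-07), DDIT4 by 1.21 ± 0.12 (adjusted p = 3.2e-05) and CEBPB by 0.31 ± 0.10 (adjusted p = 0.0309). TRIB3 was lower in PLC5 by 8.15-fold (-3.03 ± 0.14, adjusted p = 1.99e-07). DDIT3 (0.10 ± 0.15), ATF3 (-0.11 ± 0.15), PPP1R15A (-0.07 ± 0.15), SESN2 (0.10 ± 0.11) and ATF4 (-0.36 ± 0.15) were not called. With no normalization, or with normalization within each line, 9 of the 10 were called between the controls, so these differences hold relative to the other probes of the array.

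Close relatives of these genes were read in the same way. Of 13 paralogs, 1 rose in PLC5 (JDP2) and 0 fell, where 1.07% of all genes were called in either direction. In HepG2, 4 rose (JDP2, SESN3, CEBPG and NUPR2) and 2 fell, where 8.8% of all genes were called. Of the tribbles, TRIB1 gave 0.00 ± 0.13 in PLC5 and fell in HepG2 (-0.90 ± 0.13, adjusted p = 0.00756), and TRIB2 was called in neither line (0.42 ± 0.23 in PLC5 and -0.19 ± 0.23 in HepG2). CHAC2, the constitutive counterpart of CHAC1, gave -0.38 ± 0.10 in PLC5 (adjusted p = 0.14) and fell in HepG2 (-0.44 ± 0.10, adjusted p = 0.0378). PPP1R15B, the constitutive counterpart of PPP1R15A, was not called (-0.02 ± 0.14 in PLC5 and 0.36 ± 0.14 in HepG2). SESN1 was not called in either line (0.16 ± 0.13 in PLC5 and 0.07 ± 0.13 in HepG2). SESN3 rose in HepG2 (2.01 ± 0.22, adjusted p = 0.00233) from a mean level of 20.3, and gave 0.32 ± 0.22 in PLC5. NUPR2 gave 0.11 ± 0.19 in PLC5 and rose in HepG2 (0.72 ± 0.19, adjusted p = 0.0496), and DDIT4L was called in neither line (0.14 ± 0.21 in PLC5 and 0.12 ± 0.21 in HepG2). The C/EBP genes CEBPA (-0.13 ± 0.09 in PLC5 and 0.33 ± 0.09 in HepG2) and CEBPD (-0.23 ± 0.14 in PLC5 and -0.29 ± 0.14 in HepG2) were not called, nor was ATF5, the relative of ATF4 (0.41 ± 0.11 in PLC5 and -0.18 ± 0.11 in HepG2). JDP2, the relative of ATF3, read 13540 and 15080 in treated PLC5, against 8398 and 8635 in PLC5 controls, and rose by 0.75 ± 0.11 (adjusted p = 0.0243). In HepG2 JDP2 read 9863 and 9414 after GSK343, against 5170 and 5899 in controls, and rose by 0.80 ± 0.11 (adjusted p = 0.0068), whereas ATF3 was not called there.

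**Figure D3:**
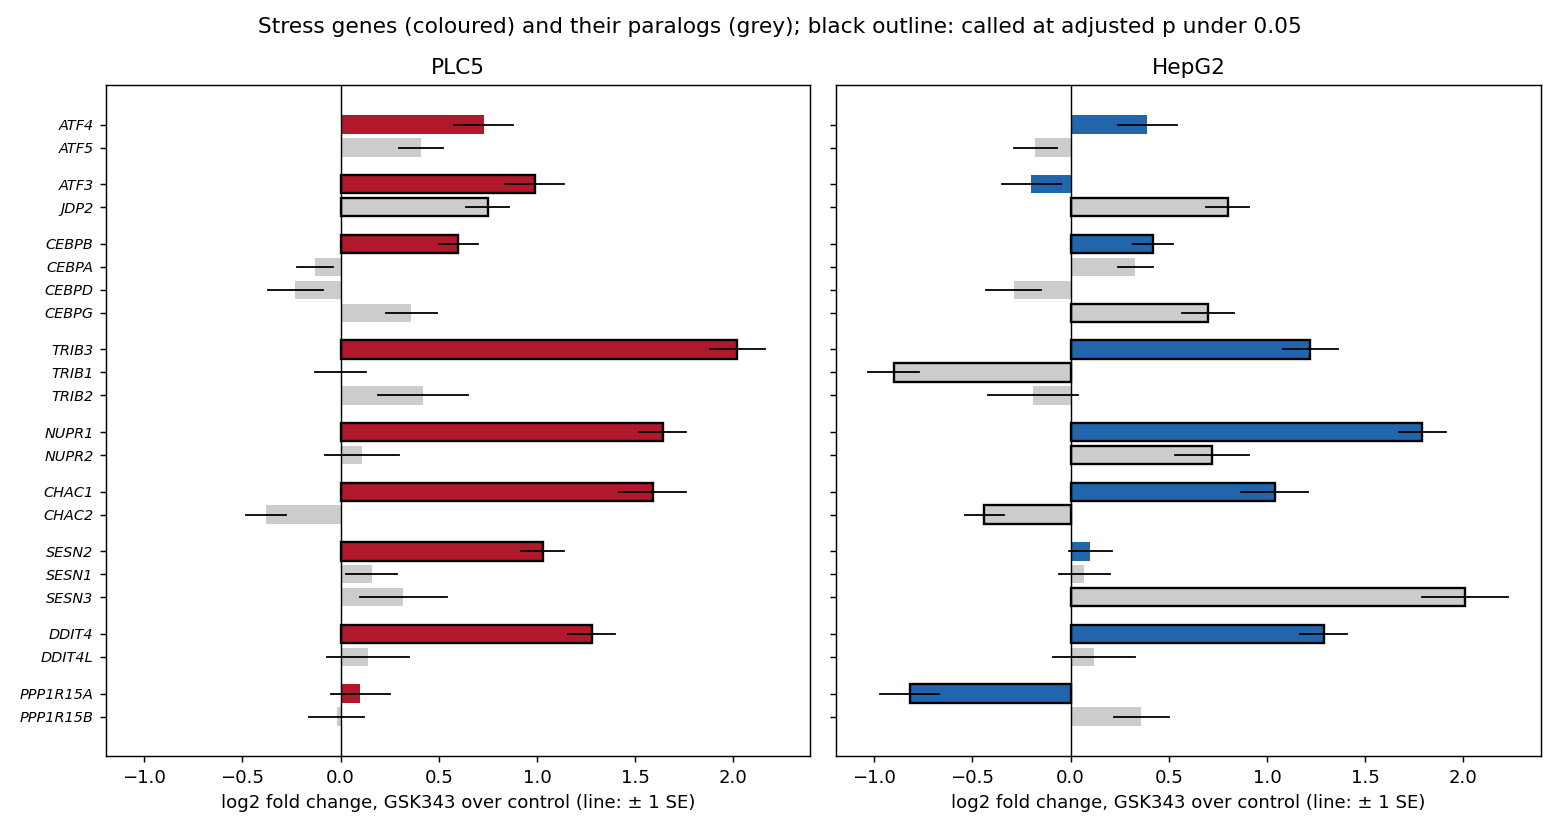
Log2 fold change (bars, GSK343 over control, with 1 standard error) of 9 stress genes (coloured) and of their paralogs (grey) in PLC5 and in HepG2; a black outline marks an adjusted p under 0.05. JDP2 is the paralog outlined in PLC5 (0.75), and TRIB1 (-0.90) and CHAC2 (-0.44) are the paralogs that fell in HepG2.

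The wider pathway was read through lists. Over all genes, 0.834% were called higher and 0.235% lower in PLC5, and 5.35% and 3.45% in HepG2. These shares are the background for the lists here and for the genes linked to CHOP below. The lists, too, were chosen with earlier results of these data known, so their counts are not an independent test. Of the 26 measured metabolic ATF4 targets, which supply amino acids and charge tRNAs, 10 rose and 0 fell in PLC5 (median 0.54), among them ALDH1L2 (1.58 ± 0.18), the cystine carrier SLC7A11 (1.47 ± 0.11), PHGDH, the first enzyme of serine synthesis (1.36 ± 0.13), and the asparagine synthetase ASNS (1.36 ± 0.09). In HepG2, 9 rose and 1 fell (median 0.27), with ASNS at 1.11 ± 0.09 and PSPH, the last step of serine synthesis, at 1.08 ± 0.18. The gene that fell was SLC38A2, an amino acid carrier (-0.39 ± 0.09, adjusted p = 0.038). Of 17 secreted and other ATF4 targets, 8 rose and 0 fell in PLC5 (median 0.63), and 5 rose and 1 fell in HepG2 (median 0.05). The member that fell, GDF15, a stress hormone that signals to the brainstem, gave 0.94 ± 0.11 in PLC5 (adjusted p = 0.0052) and -0.55 ± 0.11 in HepG2 (adjusted p = 0.0219), and the responses differed (1.49 ± 0.15, adjusted p = 0.00833).

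Of 15 genes of cell death and oxidation linked to CHOP, limma called 0 in PLC5, where 6 higher and 1 lower passed an unadjusted p of 0.05 (median 0.33). PMAIP1 (0.64 ± 0.14, adjusted p = 0.0853), BBC3 (0.73 ± 0.17, adjusted p = 0.102) and the death receptor gene TNFRSF10B (0.51 ± 0.12, adjusted p = 0.1) were among them. In HepG2, where DDIT3 itself was not called, 2 rose and 2 fell (median -0.06): TNFRSF10B (0.70 ± 0.12) and BBC3 (0.69 ± 0.17) rose, and GADD45A (-0.45 ± 0.11) and CASP4 (-0.53 ± 0.12) fell. ERO1A, the oxidase of the endoplasmic reticulum, was called in neither line (0.14 ± 0.17 in PLC5 and -0.33 ± 0.17 in HepG2).

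The transcripts of the upstream sensing step were read through their own list. Kinase activity and phosphorylation of eIF2 were not measured, so the list does not show whether that step was active. The shares of 1.07% of all genes called in PLC5 and 8.8% in HepG2 are again the background. Of 20 genes of eIF2 kinases, phosphatase, eIF2 and eIF2B, limma called 0 in PLC5, with 1 higher and 2 lower passing an unadjusted p of 0.05, and 1 in HepG2. That one was PPP1CC, a catalytic subunit of protein phosphatase 1, which gave -0.31 ± 0.13 in PLC5 (adjusted p = 0.305) and 0.90 ± 0.13 in HepG2 (adjusted p = 0.00664), and its responses differed (-1.21 ± 0.18, adjusted p = 0.0332). EIF2AK3, which encodes the endoplasmic reticulum kinase PERK, gave 0.45 ± 0.10 in PLC5 (adjusted p = 0.0821) and 0.01 ± 0.10 in HepG2. The other arms of the unfolded protein response were read through 25 IRE1 and ATF6 targets. In PLC5, 2 rose and 0 fell (median 0.16), DNAJB9 (0.60 ± 0.10) and HERPUD1 (0.63 ± 0.10), and HERPUD1 is an ATF4 target as well. In HepG2 limma called 0 of 25, and 4 higher and 1 lower passed an unadjusted p of 0.05 (median 0.06). The chaperone gene HSPA5 was called in neither line (0.04 ± 0.13 in PLC5 and -0.40 ± 0.13 in HepG2). Its probe read 418.9 and 414.5 in treated PLC5, against 419.6 and 389.6 in PLC5 controls. In HepG2 it read 359.9 and 372.9 after GSK343, against 453.1 and 515.5 in controls. How well this probe reports the HSPA5 transcript was not tested, so nothing about stress of the endoplasmic reticulum is drawn from it. Of 6 core PRC2 genes, limma called 0 in PLC5 and 0 in HepG2, with 1 and 2 of them at an unadjusted p under 0.05, and the transcript of the drug's target EZH2 gave -0.53 ± 0.11 in PLC5 (adjusted p = 0.081) and -0.32 ± 0.11 in HepG2 (adjusted p = 0.117).

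**Figure D4:**
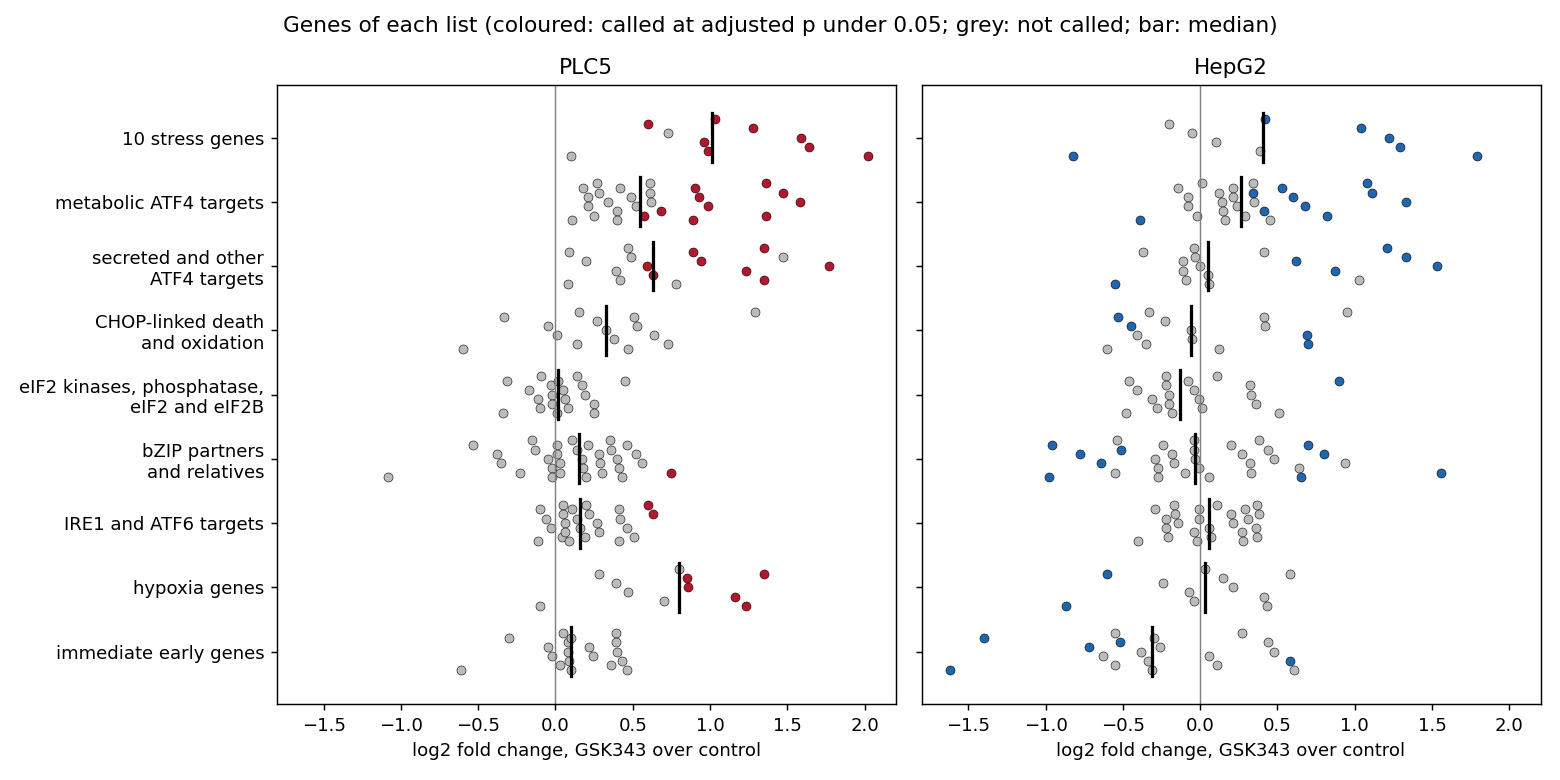
Log2 fold change (GSK343 over control) of every measured gene of 9 lists in PLC5 (left) and HepG2 (right); each point is a gene, coloured where called at an adjusted p under 0.05, and bars are list medians. The 10 stress genes have medians of 1.01 in PLC5 and 0.41 in HepG2, against 0.16 and 0.06 for the IRE1 and ATF6 targets.

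Among 10715 other genes in the brighter 50% of probes, the patterns most like those of 4 of the factors and targets were sought by Pearson correlation over the 8 arrays, which share 2 lines and a normalization, so that a gene differing between the lines can score high for that alone. DDIT3 was most like MARCHF9 (r = 0.978), the autophagy gene WIPI1 (r = 0.971) and GOLGA2 (r = 0.965). WIPI1 was also among the 3 genes most like ATF3 and SESN2. It read 10600 and 11720 in treated PLC5 and 5805 and 6194 in PLC5 controls, against 5007 and 4989 in treated HepG2 and 5007 and 5638 in HepG2 controls, with treated PLC5 alone apart. TRIB3 was most like FDFT1 (r = 0.998), the squalene synthase gene, FASN (r = 0.995), the fatty acid synthase gene, and PHGDH (r = 0.989). ATF4 was most like MARCHF3 (r = 0.953), DDX6 (r = 0.933) and the sterol reductase gene DHCR7 (r = 0.931). CHAC1 was most like OPTN, DNASE2 and PKIB (r = 0.996 for each), whose values, like its own, mostly separate the lines.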

How the data were processed

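The labels' protocols describe amplification to amino-allyl antisense RNA, labelled with Cy5. The authors deposited linear intensity values as whole numbers, some of them 0 or negative, which implies background subtraction. The scanner, its software and its spot flags are not named in the labels. Array medians differed, so no normalization between arrays was visible.

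The intensities were quantile normalized over 8 arrays, floored at 1 and taken to log2. Symbols came from the platform table: 24740 probes had 1 symbol, 977 several and 6024 none. RefSeq names (GRCh38.p14) updated 1948 and left 70 unmatched. A gene's main probe was its brightest 1-symbol probe over all arrays. Group means were fitted with limma 3.58.1 (R 4.3.3; lmFit, eBayes with trend) on all 8 arrays, and two-sided p-values were adjusted by Benjamini and Hochberg over 31741 probes. The fit was tested on simulated data. All 10 members were named, with their paralogs, some of the called genes of related lists and the 3 genes most like ATF4, DDIT3, TRIB3 and CHAC1; PMAIP1, EIF2AK3, HSPA5, ERO1A, EZH2 and the genes most like ATF3 and SESN2 were named after their values were seen. Members and lists were chosen with earlier results of these data known. Promoter windows came from RefSeq. Alternatives varied the normalization, floor, pseudocount, filter, variance model, probe, replicate block and arrays used.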

Additional observations from a re-analysis of the deposited data

Results flagged for a closer look

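The responses of 2 genes differed between the lines by the test of the difference itself. ATF3 responded more in PLC5 than in HepG2 by 1.20 ± 0.21 (log2, adjusted p = 0.0487 in limma), with both treated arrays above both controls in PLC5 and both below in HepG2. SESN2 responded more in PLC5 by 0.92 ± 0.16 (adjusted p = 0.0487), with treated arrays above the controls in both lines. Groups of 2 arrays are too small to single out an outlying array.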

How the results depend on the processing

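Among the 10 genes, 8 were called in PLC5, 6 in HepG2, 2 for the difference of responses and 5 between the controls. With a floor of 64, with eBayes without trend, or fitted on the 4 arrays of the line alone, 5 were called in PLC5. For the difference, 1 was called with a floor of 64, and limma called 0 with arrays centred on their median, with no normalization, with normalization within each line, without trend and with the replicate block (4 to 6 at an unadjusted p under 0.05 wherever 0 were called). Between the controls, 9 were called with no normalization and 9 with normalization within each line. Leaving out each array in turn gave 5 to 7 in PLC5, 3 to 6 in HepG2, 0 to 0 for the difference and 4 to 5 between the controls, a lone array being assumed to vary like the other groups. In PLC5 the count of 5 arose without the first control, the second treated array or either treated HepG2 array, which enter through the shared spread. In HepG2 the count of 3 arose without the second control or the first treated array. The replicate numbers did not pair the arrays (r of same-numbered deviations from -0.11 to 0.01), and with the replicate block 7 were called in PLC5, 5 in HepG2 and 5 between the controls. Crossing the numbers in HepG2 (r = -0.10 there), chosen after seeing the data, gave 7, 5, 0 for the difference and 5.

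Signs changed only in comparisons where the gene was not called. With no normalization, DDIT3 (0.33) and ATF3 (0.25) turned in HepG2, ATF4 (-0.04) and CEBPB (-0.20) for the difference, and ATF4 (0.15), ATF3 (0.87) and PPP1R15A (0.94) between the controls, where normalization within each line gave 0.64 and 0.71 for ATF3 and PPP1R15A. ATF4 in HepG2 gave -0.01 as the mean of its probes and -0.42 on its second probe, which gave -0.20 in PLC5. Leaving out single arrays gave -0.08 to 0.29 for PPP1R15A in PLC5, -0.11 to 0.07 for the difference of DDIT4, and, between the controls, -0.24 to 0.03 for ATF3 and -0.11 to 0.31 for DDIT3. The cause of these shifts was not tested.

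Over all probes, 276 were called in PLC5 (208 higher, 68 lower) and 2572 in HepG2 (1540 and 1032). Centring on the median gave 134 higher and 279 lower in PLC5 and 818 and 904 in HepG2, and no normalization gave 128 and 11 in PLC5 and 5573 and 68 in HepG2. Without trend 78 were called in PLC5 and 1276 in HepG2, with the replicate block 143 and 1574, on the line's own arrays 114 in PLC5, and without the dimmer 50% of probes 477 in PLC5. Leaving out an array gave 117 to 167 in PLC5 and 523 to 2262 in HepG2. For the difference, 221 were called, against 88 with median centring, 455 with a floor of 64, 19 without trend, 372 with robust eBayes, 38 with the replicate block and 32 to 124 without an array. Dim probes, such as that of CHAC1 in HepG2, limit what the signal over background can show.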

Other observations

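Other bZIP genes, whose products pair with ATF4 and CHOP or compete for their sites, were read as 32 measured genes. In PLC5, 1 rose (JDP2) and 0 fell (median 0.15). In HepG2, 4 rose and 5 fell (median -0.03). Among all genes, 0.834% were called higher and 0.235% lower in PLC5, and 5.35% and 3.45% in HepG2. The rises in HepG2 were CEBPG, a partner of ATF4 (0.70 ± 0.13, adjusted p = 0.018), NFIL3 (0.65 ± 0.14, adjusted p = 0.028), JDP2 and the clock-controlled gene DBP (1.56 ± 0.15, adjusted p = 0.00146). The falls were the small MAF genes MAFK (-0.98 ± 0.11) and MAFG (-0.64 ± 0.12), the AP-1 gene FOSL1 (-0.96 ± 0.18), BATF (-0.78 ± 0.19) and CREB3 (-0.51 ± 0.13). The responses of MAFK (1.15 ± 0.16, adjusted p = 0.0285) and DBP (-2.09 ± 0.21, adjusted p = 0.00835) differed between PLC5 and HepG2.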
